A study of Mus musculus with 31 samples.

Results

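Gene expression in the colonic lining was compared between mice that received any of 3 short-chain fatty acids by rectal infusion and mice that received saline alone. Within each diet the acetate, propionate and butyrate groups were averaged with equal weight and the saline group was subtracted, and the differences on the 2 diets were then averaged. All 31 arrays of the series entered, 23 from acid-infused and 8 from saline-infused mice.

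The mice were male, of strain C57Bl/6J, with no genetic modification named, 8 weeks old at the start and 13 weeks old at sampling. Fat supplied 10% of the energy of the low-fat diet (LFD) and 45% of that of the high-fat diet (HFD), which they ate for 2 weeks before they received a daily infusion for 6 days, under light sedation. The saline group received 80 µL of saline, and the acid groups received the same volume with sodium acetate, sodium propionate or sodium butyrate at 100 mM, each isotonic and at pH 6.5. The colon was excised 4 h after the final infusion, opened and rinsed, and its lining was scraped off for RNA. There were 4 arrays per group (n = 4) and 3 for acetate on LFD (n = 3). By the labels a group had 6 mice, and which mice the arrays represent is not stated, so the p-values measure only the spread between these samples. Sedation, infusion and saline were common to all groups, and no group without infusion was analysed here.

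Acetate, propionate and butyrate are straight-chain carboxylic acids, each a carbon longer than the one before, and arise when gut bacteria ferment fibre. Colonocytes take them up through monocarboxylate transporters and oxidise them, butyrate in particular, as fuel. They also act on the free fatty acid receptors Ffar2 and Ffar3, and butyrate and propionate inhibit histone deacetylases. Butyrate can activate the nuclear receptor PPARγ, which switches on genes of fat handling.

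Values are log2 intensities, differences are log2 differences of acid minus saline, and ± gives the standard error of the fit over 8 groups (n = 31 arrays). Of the genes on the array 12795 were tested, those that reached an intensity of 20 (log2 4.32) on at least 3 arrays. Array medians lay between 5.14 and 5.19, and arrays of one group correlated with an r of 0.987 to 0.994. Genes of absorptive colonocytes, the expected main cell type, were bright everywhere, with a mean of 16 genes between 10.98 and 11.24. Transcripts of small intestinal lipid absorption (23 genes) averaged 8.24 to 8.64 on saline LFD 2 and 3, saline HFD 2 and propionate LFD 2, and at most 7.21 elsewhere. Smooth muscle transcripts (14 genes) had means of 6.80 on saline HFD 1 and 6.72 on saline HFD 2, with 6.25 as the highest value elsewhere. Of these 5 arrays 4 are saline arrays, so many of the results that rest on them, though not all, are also given without them.

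No gene differed between acid and saline arrays at an adjusted p under 0.05 (limma, Benjamini-Hochberg), 0 of 12795 genes or 0%. At an unadjusted p under 0.05 there were 495 genes (3.87%), 258 higher (2.02%) and 237 lower (1.85%) under acid, where 639.8 are expected by chance. That count was 314 without saline HFD 2 and between 378 and 636 without any other single array. The differences were small: 87.3% of genes lay within 0.1 of 0 on the log2 scale, and the median over all genes was 0.003. The fit was precise enough to bound most of them, since for 12632 genes (98.7%) the whole 95% interval lay within a 1.5-fold difference in either direction. Fitted differences over 1.5-fold numbered 18, of which 16 were lower under acid and 4 exceeded 2-fold. Among the lower ones were Apoa1, the main apolipoprotein of HDL (-1.31 ± 0.61), Apoa4, an apolipoprotein of chylomicrons (-1.28 ± 0.54), Myl9 and Des. When the 4 arrays with raised small intestinal transcripts were left out, Apoa1 stood at 0.34 and Apoa4 at 0.14. The higher ones were the B cell genes Cd79b (0.80 ± 0.33) and Ms4a1 (0.60 ± 0.29), the second dim, with 1 of 8 saline and 12 of 23 acid arrays at the intensity minimum. Apoa1, Apoa4, Ms4a1 and, further on, Hmgcs1 were chosen after their values were seen.

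The smallest p belonged to Cd93 (probe set 10488382, chromosome 2), a lectin-like membrane receptor of endothelial cells. On LFD the saline arrays read 4.20, 4.03, 4.06 and 4.12, and the acid arrays ran from 4.19 over a median of 4.35 to 4.47. On HFD saline read 4.21, 4.23, 4.17 and 4.32, and the acid arrays ran from 4.33 over 4.56 to 4.94. Every acid array lay above the saline mean of its diet (23 of 23), the groups did not overlap on HFD, and on LFD 1 of 11 acid arrays lay below the highest saline array. The difference was 0.29 ± 0.06, a 1.22-fold ratio, with an adjusted p of 0.330 in limma. The gene is dim, and the intensity minimum was reached on 1 saline and 19 acid arrays. Cd93 stood at 0.25 without the 5 arrays rich in small intestinal or smooth muscle transcripts. Over the 13 endothelial markers tested, 11 lay above 0, and the median was 0.08 (0.05 without saline HFD 4). Cd93 was the 1 member at an unadjusted p under 0.05 (7.69% of the list, against 2.02% of all genes higher). Of the 13 genes 2 met the intensity minimum on no saline array. Plvap, a protein of endothelial diaphragms, was at 0.13 ± 0.07.

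No gene separated acid from saline arrays without overlap on both diets (0%). On LFD alone 6 genes did so (0.0469%) and on HFD alone 15 (0.117%).

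Genes next in rank had the same small size. Gimap8, a GTPase of lymphocytes (probe set 10538115, chromosome 6), was at 0.30 ± 0.07 and above the saline mean in 22 of 23 acid arrays. Mageh1, a member of the MAGE family, was at 0.24 ± 0.06 and also above it in 22 of 23. The adjusted p was 0.862 for both in limma. Mageh1 and Blk met the intensity minimum on no saline array and on 5 and 6 acid arrays, so they entered the test through the acid arrays alone.

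Blk, a Src family kinase of B lymphocytes (probe set 10420758, chromosome 14), read 3.70, 3.74, 3.76 and 3.97 on the saline LFD arrays and 3.78 to 4.53, with a median of 4.05, on the acid LFD arrays. On HFD saline read 4.14, 3.70, 3.76 and 3.76, and the acid arrays 3.75 to 4.63, with a median of 4.26. The groups overlapped on both diets, and the difference was 0.35 ± 0.09.

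Myc, the transcription factor that drives growth and is a target of Wnt signalling in crypts (probe set 10424400, chromosome 15), was well measured. Saline LFD arrays read 7.52, 7.82, 8.25 and 7.93, against 7.91 to 8.70 with a median of 8.08 under acid. Saline HFD arrays read 8.31, 7.92, 8.24 and 7.77, against 8.05 to 8.70 with a median of 8.37. The difference was 0.28 ± 0.09, 21 of 23 acid arrays lay above the saline mean of their diet, and the groups overlapped on both diets (limma adjusted p = 0.999). Without the 5 arrays named above it was 0.38. Ptk7, a pseudokinase of Wnt and planar polarity signalling, was at 0.21 ± 0.06 (21 of 23 arrays), and Nr4a1, an immediate early nuclear receptor, was at 0.28 ± 0.11 (21 of 23). Of 18 immediate early genes tested, Myc and Nr4a1 among them, 8 lay above 0 and 10 below, with a median of -0.03. With the 4 arrays rich in small intestinal transcripts left out, 12 of the 18 lay above 0, with a median of 0.04. On all arrays 3 were at an unadjusted p under 0.05 (16.7% of the list, against 3.87% of all genes), of which Ier5 was lower. Without those 4 arrays no member was lower at that p. Amotl1, an angiomotin of the Hippo pathway, was at 0.19 ± 0.06. B9d1, of the ciliary transition zone, was at 0.17 ± 0.05, and Mtcl1, which crosslinks microtubules, was at 0.20 ± 0.06. Snn, Zfp112, Aym1, Fkbp7, Zfp397 and Gna15 complete the 15 smallest p among genes above 0, at 0.12 to 0.22. Aym1 and Gna15 also entered through the acid arrays alone, with 3 of them and no saline array at the intensity minimum.

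On the lower side the smallest p belonged to Cnih2, an auxiliary subunit of glutamate receptors (probe set 10464917, chromosome 19). Saline LFD arrays read 4.48, 4.43, 4.58 and 4.59, against 4.21 to 4.55 with a median of 4.38 under acid. Saline HFD arrays read 4.62, 4.59, 4.40 and 4.66, against 3.87 to 4.53 with a median of 4.37. The ranges overlapped on both diets, 22 of 23 acid arrays lay below the saline mean, and the difference was -0.22 ± 0.05 (limma adjusted p = 0.862).

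Map1lc3a, the LC3 protein of autophagosome membranes (probe set 10477637, chromosome 2), was brighter. Saline LFD arrays read 7.82, 7.66, 7.76 and 7.70 against 7.36 to 7.68 with a median of 7.54, and saline HFD arrays read 7.81, 7.95, 7.85 and 7.69 against 7.45 to 7.96 with a median of 7.61. The groups overlapped on both diets. The difference was -0.19 ± 0.05, with 20 of 23 acid arrays below the saline mean, and it was -0.18 without the 5 arrays. Med28, a Mediator subunit, was at -0.15 ± 0.05, Kctd7 at -0.15 ± 0.05, and Flvcr1, a haem and choline transporter, at -0.19 ± 0.06. Castor1, an arginine sensor upstream of mTORC1, was at -0.13 ± 0.04. Zfp133-ps, Cyp4f16, Cep20, Efhb and Clrn3 lay between -0.26 and -0.11. The other 4 of the 15 were the smooth muscle genes Myl9, Des, Myh11 and Actg2, described with the stroma.

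**Figure D1:**
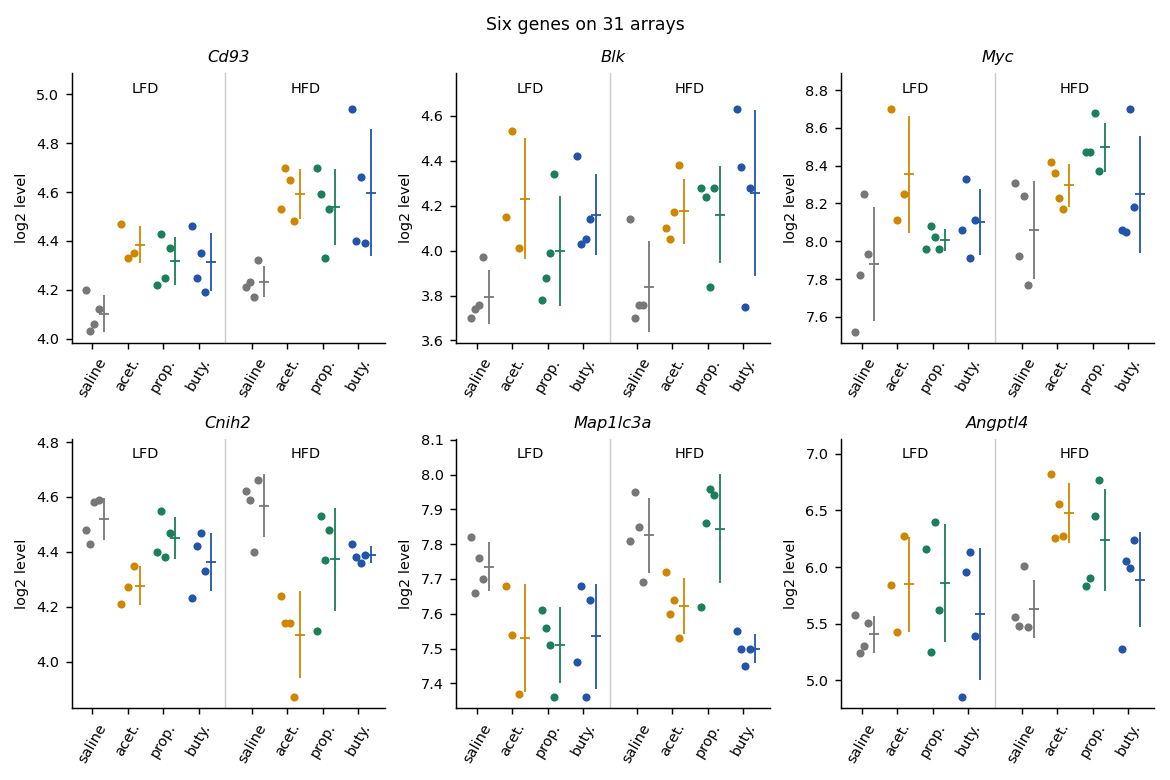
Log2 levels of Cd93, Blk, Myc, Cnih2, Map1lc3a and Angptl4 on each of 31 arrays by group, with the mean and SD of each group beside its points (n = 4, acetate LFD n = 3) and a separate log2 scale in each panel. Cd93 is the 1 of the 6 genes in which the acid arrays clear all saline arrays on a diet (HFD, 4.33 and above against 4.32 and below).

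Genes through which the acids enter the cell and signal had a median of -0.03. Of 12 tested members of the list of uptake, exchange and receptors, 5 lay above 0 and 2 had an unadjusted p under 0.05, both lower (16.7% of the list, against 1.85% of all genes lower). Slc16a1 (MCT1), the main monocarboxylate transporter of the colon (probe set 10495035), read 10.38, 10.11, 10.27 and 9.96 on saline LFD arrays and 9.94 to 10.32 under acid, and 10.66, 10.12, 10.35 and 10.29 on saline HFD arrays and 9.88 to 10.54 under acid. The levels overlapped throughout, with a difference of -0.09 and a 95% interval from -0.24 to 0.05. Slc5a8, the sodium-coupled transporter of short acids, was at -0.04 (interval -0.14 to 0.06). The receptors Ffar2 (0.04, -0.14 to 0.22) and Ffar3 (0.00, -0.11 to 0.12) were as close to 0. Slc16a3 (MCT4), which exports lactate, was at -0.24 ± 0.11 (unadjusted p = 0.0385, limma adjusted p = 0.999), and Slc26a6, an anion exchanger, at -0.30 ± 0.15. With those 4 arrays of raised small intestinal transcripts left out, Slc26a6 stood at 0.02 and Slc16a3 at -0.17, and no member of the list was under 0.05.

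The enzymes that burn the acids lay on both sides of 0 as well. Of 14 genes that activate and break down short acids 8 lay above 0, none at an unadjusted p under 0.05, with a median of 0.02. Acss1, the mitochondrial acetyl-CoA synthetase, was at 0.11 ± 0.07, Acaa2, a thiolase, at 0.12 ± 0.08, and Hadh, of short-chain β-oxidation, at 0.07 ± 0.04. The route from propionyl-CoA to succinyl-CoA (12 genes) had a median of 0.00, also with none under 0.05. Suclg2, a subunit of succinyl-CoA synthetase, was at 0.07 ± 0.06 and Mmab, which makes adenosylcobalamin, at -0.12 ± 0.10.

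The histone deacetylase list holds class I deacetylases together with genes that inhibitors raise, so its counts and median do not measure inhibition. Of 16 tested, 6 lay above 0, with a median of -0.04 (9 and 0.01 with the 4 arrays rich in small intestinal transcripts left out). At an unadjusted p under 0.05, 2 were higher and 1 was lower (18.8% of the list, against 3.87% of all genes). Hdac1 was at 0.12 ± 0.06, and Tgfb1, a growth-restraining cytokine, at 0.22 ± 0.08 with 21 of 23 acid arrays above the saline mean. Cdkn2b, the cell cycle inhibitor p15, was at -0.11 ± 0.05. Cdkn1a, the inhibitor p21 that deacetylase inhibitors raise in cultured cells, was at -0.04 with an interval from -0.19 to 0.11. None reached an adjusted p below 0.999 in limma.

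Targets of the PPAR receptors, which sense fatty acids, were mixed. Of 16 tested, 10 lay above 0, and the median was 0.065. At an unadjusted p under 0.05, 1 was higher and 1 lower (12.5% of the list, against 3.87% of all genes). The higher one was Angptl4, an inhibitor of lipoprotein lipase that short-chain acids raise in cultured colon cells (probe set 10450038, chromosome 17). Saline LFD arrays read 5.58, 5.24, 5.30 and 5.51 against 4.85 to 6.40 with a median of 5.84, and saline HFD arrays read 5.56, 5.48, 6.01 and 5.47 against 5.28 to 6.82 with a median of 6.25. The acid arrays lay around the saline arrays and above them, 19 of 23 above the saline mean. The difference was 0.46 ± 0.15, a 1.38-fold ratio, at an unadjusted p of 0.00577 (limma adjusted p = 0.999). Without the 5 arrays it was 0.37. Pdk4, which spares glucose by blocking pyruvate dehydrogenase, was at 0.37 ± 0.23, and Cpt1a, the gate to mitochondrial β-oxidation, at 0.09 ± 0.06. Fabp1, the liver-type fatty acid binding protein, was the lower one at -0.43 ± 0.15. It read 5.62 on saline HFD 2 against 3.96 to 4.05 on the other saline HFD arrays, and the difference was -0.14 when the 4 arrays rich in small intestinal transcripts were left out. Of 20 genes of fatty acid oxidation 17 lay above 0, none under 0.05, with a median of 0.04.

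Lipid synthesis leaned the other way. Of 16 genes that make and desaturate fatty acids 2 lay above 0, and the median was -0.09 (-0.05 without saline HFD 4). Thrsp, a nuclear activator of lipogenesis, was at -0.34 ± 0.16, the 1 member at an unadjusted p under 0.05 (6.25% of the list, against 1.85% of all genes lower). It read 5.67 and 5.13 on saline LFD 1 and 2 and 5.05 on butyrate LFD 2, the 3 arrays highest in adipocyte genes, and at most 4.39 elsewhere, and it was at -0.18 without saline LFD 1. The part of fat cell transcripts in the Thrsp difference was not tested. Scd2 was at -0.31 ± 0.15, Scd1 at -0.09 ± 0.18 and Fasn at -0.10 ± 0.09 (-0.04 without saline HFD 4). All 20 tested genes of cholesterol synthesis and uptake lay below 0, with a median of -0.15, while 51.8% of all genes lay above 0. At an unadjusted p under 0.05 there were 4 (20% of the list, against 1.85% of all genes lower).

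Insig1, which holds the sterol sensor in the endoplasmic reticulum and is itself a target of SREBP factors (probe set 10520362, chromosome 5), read 9.80, 9.79, 9.24 and 9.53 on saline LFD arrays and 8.52 to 9.99 with a median of 9.57 under acid. On HFD saline read 9.48, 9.95, 9.33 and 9.80 and the acid arrays 8.92 to 9.60 with a median of 9.21. On HFD 11 of 12 acid arrays lay below every saline array, and on LFD 4 of 11 did. The difference was -0.30 ± 0.11. Ebp, a sterol isomerase, was at -0.12 ± 0.05 and Pmvk, a kinase of the mevalonate pathway, at -0.19 ± 0.08 (limma adjusted p = 0.999 for each). Ebp was at -0.08 without saline LFD 1 and Pmvk at -0.12 without saline HFD 4. Hmgcs1, which makes HMG-CoA, was at -0.25 ± 0.14 and at -0.14 without saline HFD 4. The list mean read 8.28, 8.77, 8.25 and 9.04 on the saline HFD arrays and 8.08 to 8.64 under acid there, so saline HFD 1 and 3 lay within the acid range. On LFD it read 8.82, 8.86, 8.57 and 8.93 against 8.27 to 9.08. The list median was -0.09 on LFD and -0.28 on HFD, and -0.25 on average without the 5 arrays, with 5 genes then at an unadjusted p under 0.05. Without saline HFD 4 alone, the highest saline array in this list, it was -0.08.

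Since the sterol genes lay on one side, the 250 bases upstream of their start sites were searched for motifs of sterol-regulated promoters, CCAAT (bound by NF-Y) and TCACNCCAC (sterol regulatory element), on both strands. The letters CCAAT or its complement occurred in a window of all 16 genes of the list that have one, against 37.5% of 27025 genes with such a window. TCACNCCAC occurred in 1 of the 16, Hmgcs1, against 1.22% of all genes. The motifs were chosen after several had been tried, and a match is not a site. These counts depend on which genes the list holds and not on the difference between acid and saline. Insig1 and Ebp are shown as the list members with the smallest p and Hmgcs1 as the 1 with both motifs, from RefSeq on GRCm38.p6, in the direction of transcription, with motif letters in capitals.
Insig1, chr5:28071162-28071411, plus strand: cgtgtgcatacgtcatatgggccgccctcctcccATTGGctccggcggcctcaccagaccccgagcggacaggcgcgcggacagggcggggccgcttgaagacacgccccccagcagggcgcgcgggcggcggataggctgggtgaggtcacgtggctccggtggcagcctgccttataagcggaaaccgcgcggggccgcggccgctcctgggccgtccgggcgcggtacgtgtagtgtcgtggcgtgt
Ebp, chrX:8193513-8193762, minus strand: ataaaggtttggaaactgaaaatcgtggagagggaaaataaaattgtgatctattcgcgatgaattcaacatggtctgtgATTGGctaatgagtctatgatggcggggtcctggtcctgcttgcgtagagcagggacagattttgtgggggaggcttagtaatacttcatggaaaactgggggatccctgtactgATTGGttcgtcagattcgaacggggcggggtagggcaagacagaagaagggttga
Hmgcs1, chr13:119690101-119690350, plus strand: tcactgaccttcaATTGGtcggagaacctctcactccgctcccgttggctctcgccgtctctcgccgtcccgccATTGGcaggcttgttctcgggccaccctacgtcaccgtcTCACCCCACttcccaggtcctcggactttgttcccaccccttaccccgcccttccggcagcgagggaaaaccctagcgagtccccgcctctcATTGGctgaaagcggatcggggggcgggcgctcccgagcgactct
In Insig1 the capitals mark the complement of CCAAT, whose first base lies 216 bases before the start site. In Ebp the same letters occur at 170 and 55 bases before it. In Hmgcs1 they occur at 237, 176 and 45 bases before it, with TCACNCCAC at 137.

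**Figure D2:**
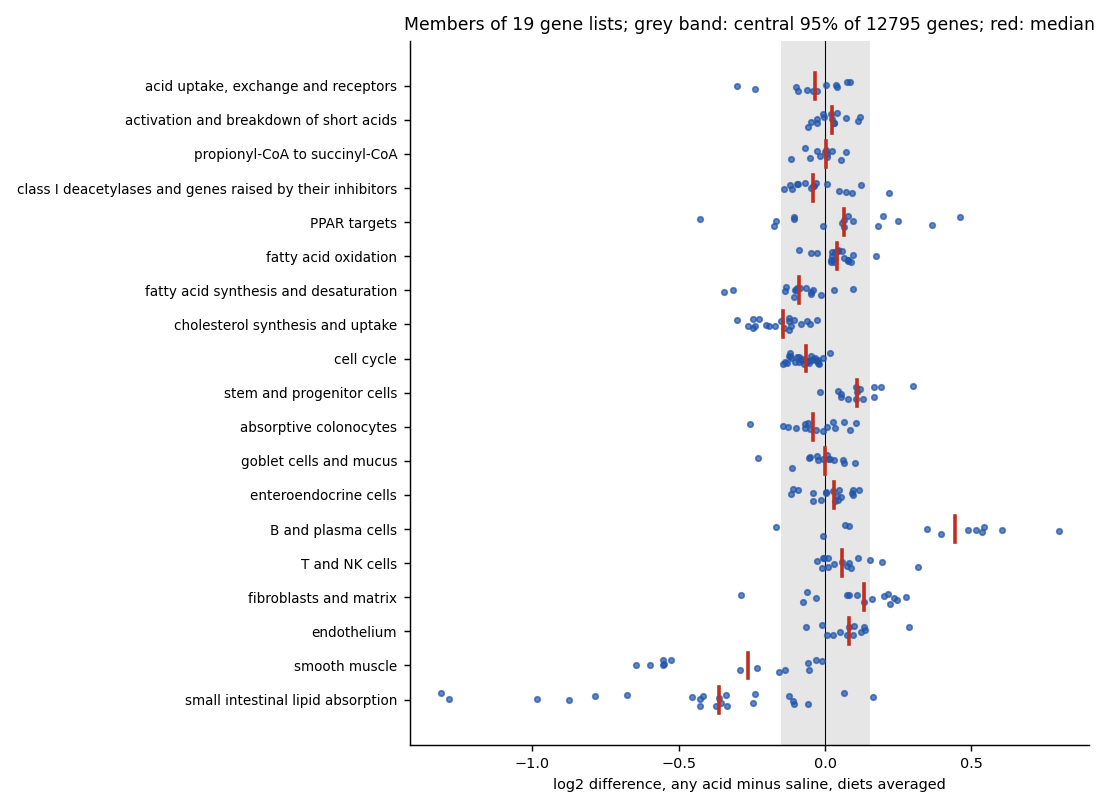
Log2 difference of any acid minus saline, averaged over the diets, for every tested member of 19 gene lists, with the list median in red and the central 95% of 12795 genes (-0.15 to 0.15) as a grey band. Most members lie within the band, and the B cell, smooth muscle and small intestinal lists reach furthest beyond it. Other lists also have members outside it, among them PPAR targets (-0.43 to 0.46) and cholesterol synthesis and uptake (down to -0.30).

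Epithelial cell types kept close to 0 apart from the stem cell list. Of 14 stem and progenitor genes 13 lay above 0, with a median of 0.11 and 3 higher at an unadjusted p under 0.05 (21.4% of the list, against 2.02% of all genes higher). These were Sox9, a transcription factor of crypt progenitors (0.19 ± 0.09), Rnf43, a Wnt-induced ligase that dampens Wnt receptors (0.17 ± 0.08), and Slc12a2, the chloride cotransporter of crypt cells (0.13 ± 0.06). The saline array LFD 1 was low in this list, at 7.52 against 7.85 to 7.90 on the other saline LFD arrays, and Sox9 read 7.86 there against 8.78 to 8.94. Without that array the list median was 0.07, Sox9 stood at 0.07 and Rnf43 at 0.11. Without the 5 arrays the list median was 0.15 with 6 genes under 0.05. The 29 cell cycle genes were on the other side, 1 above 0, none under 0.05, with a median of -0.06 (-0.02 without saline HFD 4). Birc5, a survivin of mitotic cells, was at -0.15 ± 0.08.

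Differentiated cells showed little. The median was -0.04 for 16 absorptive colonocyte genes (0.003 with the 4 arrays rich in small intestinal transcripts left out). It was 0.00 for 14 goblet cell and mucus genes and 0.03 for 18 enteroendocrine genes. Muc2, the gel-forming mucin, was at 0.01 with an interval from -0.04 to 0.06, and Tff3, a goblet cell trefoil peptide, at -0.11 ± 0.04. Gcg, the precursor of GLP-1, was at 0.10 ± 0.08 and Pyy at -0.04 ± 0.06, the gut hormones whose release the free fatty acid receptors promote. Kcnq1, a potassium channel of epithelial secretion, was at 0.13 ± 0.06. Reg3g, an antimicrobial lectin, was at -0.58 ± 0.38, and on HFD butyrate 3 read 7.76 against 9.80 to 10.21 on the other butyrate arrays. Of 14 genes of the circadian clock 1 was higher and 2 were lower at an unadjusted p under 0.05 (21.4% of the list, against 3.87% of all genes). Arntl (-0.35 ± 0.17) and Npas2 (-0.24 ± 0.10), which form its activating arm, lay opposite to Nr1d2 (0.17 ± 0.08) of its repressing arm. Without saline HFD 1 and 2 no clock gene was under 0.05, and without the 5 arrays 2 were higher and 1 was lower.

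Among the 45 gene lists, medians ran from -0.36 (small intestinal lipid absorption) to 0.44 (B and plasma cells). Of 12 tested B and plasma cell genes 10 lay above 0 and 6 had an unadjusted p under 0.05 (50% of the list, against 2.02% of all genes higher). Of the 6, Blk met the intensity minimum on no saline array and so entered the list through the acid arrays alone. In scrapings, a change in the number of cells of a type and a change in RNA per cell cannot be told apart. Cd79b, the β chain of the B cell receptor (probe set 10392142, chromosome 11), read 4.79, 4.93, 5.35 and 5.29 on saline LFD arrays and 4.50 to 6.99 with a median of 5.71 under acid. On HFD saline read 6.83, 4.52, 4.86 and 4.55, and the acid arrays 5.39 to 7.44 with a median of 5.85. Acid arrays spread from the saline level upward, with saline HFD 1 among them. The difference was 0.80 ± 0.33 (interval 0.12 to 1.48, limma adjusted p = 0.999), and Cd22, a B cell lectin, was at 0.54 ± 0.20.

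The mean of the 12 genes read 4.33, 4.32, 4.56 and 4.58 on saline LFD arrays and 5.14, 4.32, 4.39 and 4.40 on saline HFD arrays. Under acid it ran from 4.21 over 4.80 to 5.41 on LFD and from 4.47 over 4.78 to 5.64 on HFD. Acetate LFD 1, propionate LFD 1 and butyrate LFD 2 and 3 were at 4.21 to 4.36, the level of the low saline arrays. Without saline HFD 1 and 2 the list median was 0.58 with 8 genes under 0.05, and with the 4 arrays rich in small intestinal transcripts left out it was 0.43 with 1. Over all 15 members on the array, with no intensity minimum, the list median was 0.35 and 12 lay above 0. Of the 15, 6 were higher at an unadjusted p under 0.05, against 433 of 18820 genes. Of 15 T and NK cell genes 11 lay above 0, with a median of 0.06 and 2 under 0.05 (13.3% of the list, against 2.02% of all genes higher). These were Ptprc, the pan-leukocyte phosphatase CD45 (0.32 ± 0.11), and Il7r, the interleukin 7 receptor (0.20 ± 0.07, dim, at the minimum on 5 acid and no saline arrays). With the 4 arrays rich in small intestinal transcripts left out, 6 of the 15 lay above 0, none was under 0.05 and the median was -0.02, and without saline HFD 2 alone it was -0.01. Of 10 genes of class II presentation 6 lay above 0, and the median was 0.04 (-0.01 without saline LFD 1). Under 0.05 was 1 (10% of the list, against 2.02% of all genes higher). The 2 named from this list, H2-Ob and H2-Eb2, were at 0.54 ± 0.28 and 0.44 ± 0.21. The interferon list had a median of 0.00, -0.11 on LFD and 0.09 on HFD. Gbp2, an interferon-induced GTPase, was at -0.39 ± 0.22 and at -0.17 without saline LFD 3.

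Stromal transcripts split. Of 15 fibroblast and matrix genes 11 lay above 0 with a median of 0.13 (0.08 without butyrate HFD 1), among them Pdgfra, the platelet-derived growth factor receptor of fibroblasts (0.28 ± 0.13), Col6a3, a collagen (0.20 ± 0.11), and Mmp2, a matrix protease (0.22 ± 0.12). All 14 smooth muscle genes lay below 0, with a median of -0.26. At an unadjusted p under 0.05 there were 8 (57.1% of the list, against 1.85% of all genes lower). Without saline HFD 1 and 2 the list median was -0.06, 2 of the genes lay above 0 and none was under 0.05. Myl9, the regulatory light chain of myosin (probe set 10477920, chromosome 2), read 5.75, 5.96, 6.52 and 5.40 on saline LFD arrays and 4.59 to 6.49 under acid. On HFD saline read 7.09, 7.38, 5.49 and 6.21, and the acid arrays 5.07 to 5.94 with a median of 5.55. The difference was -0.65 ± 0.18 (limma adjusted p = 0.999) and -0.30 without saline HFD 1 and 2. Des, Myh11 and Actg2, the muscle desmin, myosin heavy chain and actin, were at -0.60 ± 0.18, -0.55 ± 0.18 and -0.55 ± 0.19. Without the 5 arrays all 3 stood at 0.044 to 0.053, and the list median was 0.05.

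The small intestinal list lay lower under acid in the same way. Of 23 genes 21 lay below 0, at a median of -0.36. At an unadjusted p under 0.05 there were 14 lower genes (60.9% of the list, against 1.85% of all genes lower). Without the 4 arrays that carried these transcripts, 3 of them saline, the median was -0.02 with 1 gene under 0.05. Slc2a2, the basolateral glucose transporter GLUT2, went from -0.46 ± 0.16 to -0.12, and Apoc2, a cofactor of lipoprotein lipase, from -0.43 ± 0.15 to -0.38. The 10 adipocyte genes had a median of -0.11 (-0.05 without saline LFD 1). Adipoq, the fat cell hormone adiponectin, was at -0.37 ± 0.23 and at -0.21 without that array, and the mean of the list reached 6.48 and 6.18 on saline LFD 1 and 2 and 6.54 on butyrate LFD 2.

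**Figure D3:**
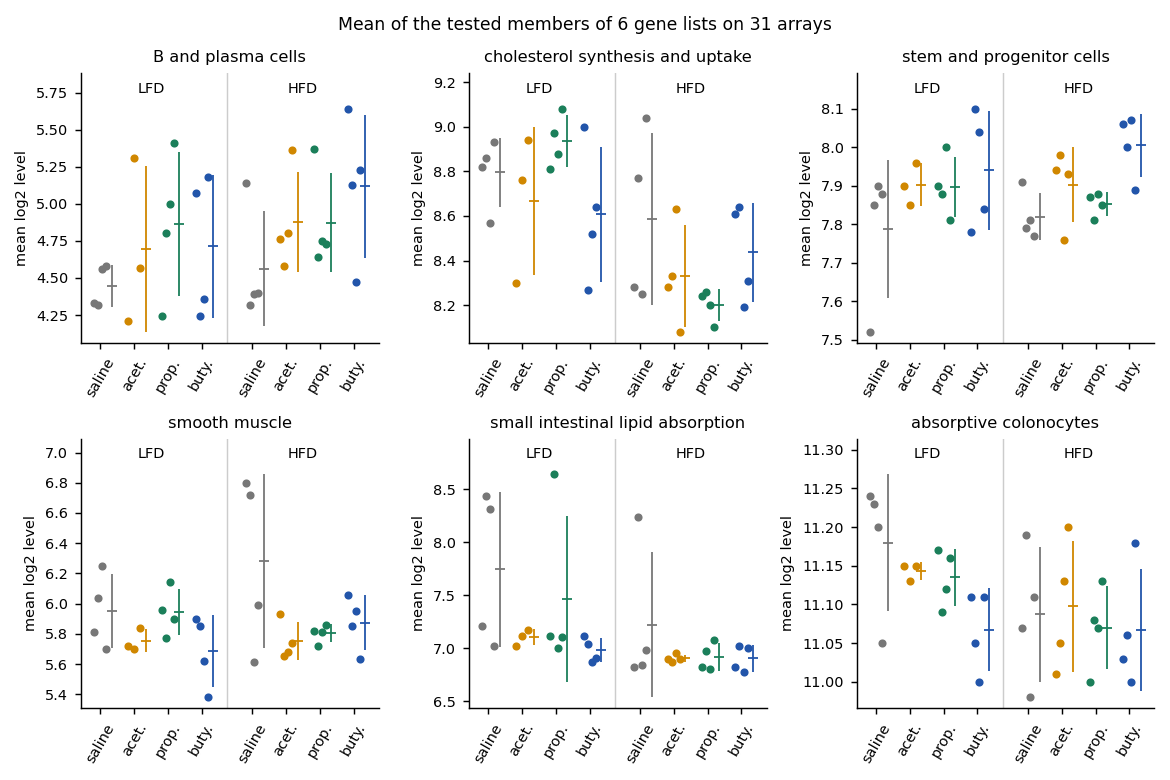
Mean log2 level of the tested members of 6 gene lists on each of 31 arrays by group, with the mean and SD of each group beside its points (n = 4, acetate LFD n = 3) and a separate log2 scale in each panel. Saline HFD 1 and 2 stand high in smooth muscle genes (6.80 and 6.72), and the arrays saline LFD 2 and 3, saline HFD 2 and propionate LFD 2 in small intestinal genes (8.24 to 8.64).

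Averaging over the diets gives the mean of the LFD and HFD differences. A change on either diet alone moves that mean, so a pooled difference need not be shared by both diets. Within LFD no gene passed (limma, 0%), with 313 genes (2.45%) at an unadjusted p under 0.05, and within HFD none passed (0%), with 388 (3.03%). The test of the difference between the diets also called no gene (0%), with 281 (2.20%) at an unadjusted p under 0.05. The contrasts share no arrays. Their differences correlated across 12795 genes with an r of 0.268, a description over genes that are not independent, and 53.2% of genes had the same sign on both diets. Genes with an unadjusted p under 0.05 and one sign on both diets numbered 15 of 12795. They are 4.79% of the 313, where 3.03% of all genes were under 0.05 on HFD with either sign. Of the 388 they are 3.87%, where 2.45% of all genes were under 0.05 on LFD with either sign. Saline arrays high in small intestinal transcripts occur on both diets, and neither this count nor the r was computed without them.

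On LFD Podxl, a sialomucin of vessels and progenitors, was at -0.28 ± 0.08 (HFD -0.05), and Adgrg1, an adhesion receptor, at 0.27 ± 0.08 (HFD 0.04). On HFD Sncb, a synuclein, was at 0.28 ± 0.07 (LFD 0.00), and Nit1, an amidase, at -0.21 ± 0.05 (LFD 0.01). Zbp1, a sensor of nucleic acids in the interferon response, differed in sign between the diets, at -0.28 on LFD and 0.17 on HFD (difference 0.45 ± 0.14, limma adjusted p = 1). Rhbdd3, a rhomboid-domain protein, had the opposite pattern, at 0.27 and -0.12 (difference -0.39 ± 0.12, limma adjusted p = 1).

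**Figure D4:**
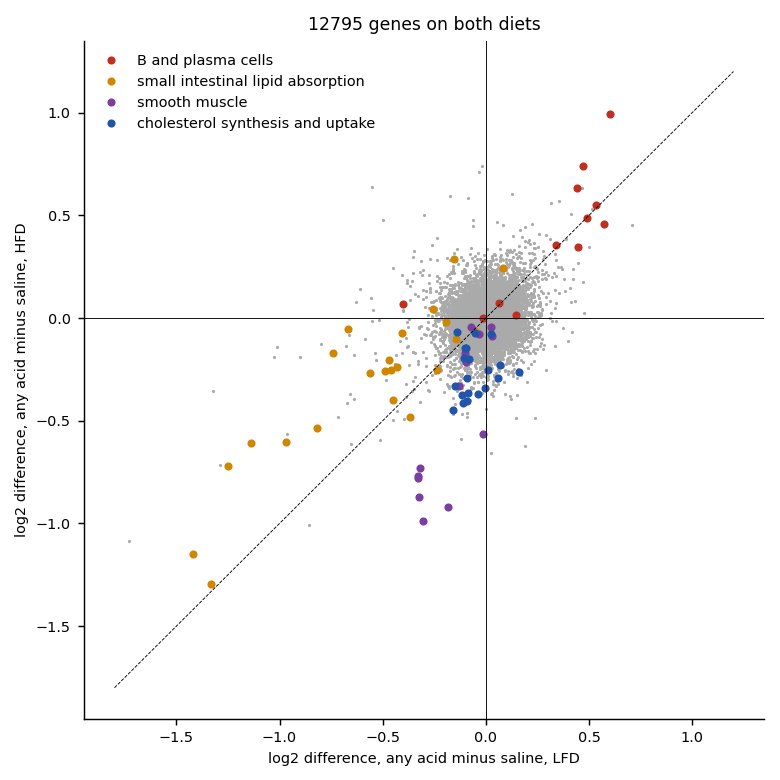
Log2 difference of any acid minus saline on LFD (horizontal axis) and on HFD (vertical axis) for 12795 genes in grey, with the tested members of 4 lists in colour and the line of equality dashed. The bulk of genes shows an r of 0.268, the small intestinal members lie further below 0 on LFD (median -0.46 against -0.25) and the smooth muscle members on HFD (median -0.45 against -0.12).

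The pooled difference gives the 3 acids equal weight, and each was also set against the same saline arrays, so the 3 sets of values are not independent. No gene passed for acetate, propionate or butyrate (limma, 0% each). At an unadjusted p under 0.05 there were 411 (3.21%), 341 (2.67%) and 569 (4.45%) genes. Cd93 was at 0.32, 0.26 and 0.29 under acetate, propionate and butyrate, Gimap8 at 0.28, 0.32 and 0.29, and Blk at 0.39, 0.26 and 0.40. Angptl4 was at 0.64, 0.53 and 0.22 and Pdk4 at 0.49, 0.56 and 0.05. Cnih2 was at -0.36, -0.13 and -0.17 (acetate, limma adjusted p = 0.084), and Insig1 at -0.38, -0.13 and -0.40. The B cell list had medians of 0.37, 0.44 and 0.51, and the sterol list of -0.16, -0.11 and -0.15.

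The acids, which differ in chain length, were then compared with each other at the matched dose and time, 3 pairs in all. Saline means do not enter these differences, but the saline arrays enter the estimate of the spread that all groups share. No gene differed in any pair or in the F test over the 3 acids (limma, Benjamini-Hochberg over the genes of each comparison, 0% each). At an unadjusted p under 0.05 there were 389 genes (3.04%) for propionate minus acetate, 204 (1.59%) for butyrate minus acetate, 857 (6.70%) for butyrate minus propionate and 430 (3.36%) for the F test. The smallest p of the last pair and of the F test belonged to Myd88, the adaptor of Toll-like receptors, at 0.22 (interval 0.13 to 0.30, limma adjusted p = 0.114 for the pair and 0.56 for the F test). Utp4, a ribosome biogenesis factor, was at 0.31 in that pair (interval 0.16 to 0.46). Castor1 was at -0.25 for propionate minus acetate (interval -0.36 to -0.13). For Cd93 the intervals of the 3 pairs were -0.21 to 0.09, -0.18 to 0.12 and -0.12 to 0.17. For Angptl4 they were -0.52 to 0.28, -0.83 to -0.03 and -0.70 to 0.08, the order of the pairs being propionate minus acetate, butyrate minus acetate and butyrate minus propionate. The intervals show how large a difference between acids these arrays leave possible.

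**Figure D5:**
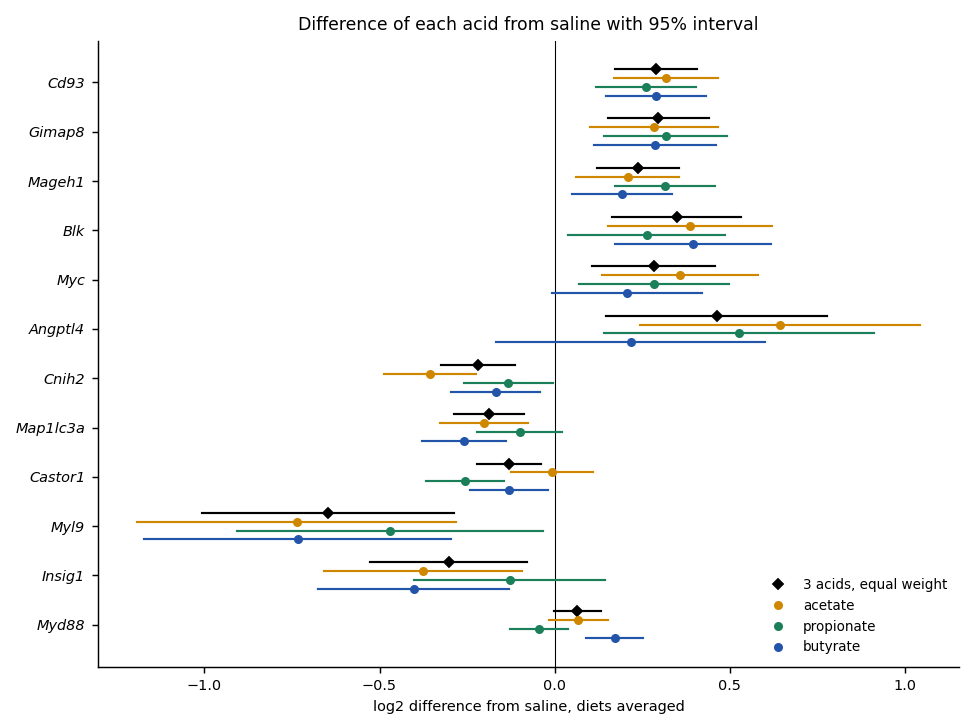
Log2 difference from saline, averaged over the diets, for 12 genes, as the mean of the 3 acids (black) and for each acid (colours), with 95% intervals from the fit over 31 arrays. The estimates of the 3 acids nearly coincide for Cd93 (0.26 to 0.32) and lie furthest apart for Angptl4 (0.22 to 0.64).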

How the data were processed

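Each of 31 RNA samples from mouse colon scrapings was read on its own single-colour array. The authors deposited log2 values made with RMA, per the submitters' processing notes, a method that corrects background, normalizes quantiles and summarises probes to probe sets. Neither the RMA version nor a genome build for the array is stated in the sources used here. Of 35556 probe sets 21218 carry 1 gene symbol in the annotation used, 1881 several and 12457 are not listed. For 1386 of 18820 genes with more than 1 probe set, the brightest was taken. Precision is limited by the number of arrays and, for dim genes, by the background.

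Groups came from the titles. A model with 1 mean per group was fitted in R 4.3.3 by limma 3.58.1, moderated along an intensity trend, and p-values were adjusted by Benjamini-Hochberg over all genes of a comparison (threshold 0.05). The code was tested on simulated data. Promoters came from RefSeq windows on GRCm38.p6.

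The groups of genes were 45 lists (810 genes, 657 tested), described by counts and medians with no list test. The comparison, its members and the lists were chosen with earlier results of these data known. Named genes are the 15 smallest p in each direction of the pooled comparison, the 5 smallest p of the diet, interaction and F comparisons, the 3 smallest p of each list and a panel of acid targets, from which this text takes a selection. Gene models, small RNAs and immunoglobulin segments were counted and not named.

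Alternatives covered the filter (none or stricter), the moderation (no trend or robust), weights for arrays, every probe set, median centring, repeated quantile normalization, an additive model, single diets, dropping an acid, a replicate block, and dropping each array. Dropping the arrays high in small-intestinal or smooth muscle transcripts was chosen after seeing the data.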

Additional observations from a re-analysis of the deposited data

Results flagged for a closer look

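Of 742 groups of 4 arrays checked over the named genes and 9 list means, 56 (7.55%) held an array whose gap to its nearest neighbour exceeded 0.829 of the range of the group, where chance gives about 1 in 20. Values below are log2 levels on that array, with the other 3 arrays of the group in brackets where the gap is wide. Acetate on LFD has 3 arrays and was not checked.

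Small intestinal transcripts stood apart on saline HFD 2 and propionate LFD 2. On saline HFD 2 the list mean was 8.24 (others 6.82 to 6.98), Apoa1 10.80 (5.54 to 6.07), Apoa4 9.60 and Fabp1 5.62, while Plvap was high at 4.57 and Acaa2 (10.15) and Acss1 (8.65) were low. On propionate LFD 2 the list mean was 8.64 (others at most 7.11), Apoa1 11.39 (6.75 to 7.49) and Apoa4 9.71. Smaller gaps in Apoa4 were found on acetate HFD 2 (5.44) and propionate HFD 2 (5.72).

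B cell transcripts stood apart on saline HFD 1 and propionate HFD 1. On saline HFD 1 the list mean was 5.14 (4.32 to 4.40), Cd79b 6.83 (4.52 to 4.86), H2-Ob 6.51 and Blk 4.14. On propionate HFD 1 the list mean was 5.37 (4.64 to 4.75), Cd79b 6.97, Ms4a1 5.69 and H2-Eb2 5.42, with Ebp also high at 8.72. Blk was low on propionate HFD 3 (3.84), where Rnf43 was high (8.57).

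Saline LFD 1 was low in the stem and progenitor mean (7.52), Sox9 (7.86), Kcnq1 (9.13) and Ptk7 (4.82), and high in Cyp4f16 (9.34). Saline LFD 2 was low in Birc5 (5.48), and saline LFD 3 was high in Gbp2 at 8.75 (6.83 to 7.12) and low in Ffar2 (6.44). Saline HFD 3 was high in Angptl4 (6.01) and low in Pdgfra (5.33) and Flvcr1 (6.42).

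Among other propionate arrays, LFD 3 was high in the fibroblast and matrix mean (6.22), Col6a3 (5.23) and Il7r (4.49), LFD 1 low in the endothelial mean (4.49), and LFD 4 high in Mmab (7.30). HFD 2 was low in Des (4.52) and HFD 4 in Birc5 (5.40). Acetate HFD 1 was low in Nr1d2 (8.98), HFD 2 low in Cpt1a (10.94) and HFD 3 high in Mmab (6.65).

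Among butyrate arrays, HFD 3 was low in Reg3g at 7.76 (9.80 to 10.21) and Myd88 (8.92), and high in Gcg (8.90) and Fabp1 (4.24). HFD 1 was low in Pdk4 at 6.69 (7.91 to 8.07) and high in Zfp133-ps (4.62), and HFD 4 high in Muc2 (13.15). LFD 2 was high in Thrsp at 5.05 (3.92 to 4.10) and Ffar3 (5.05), LFD 1 high in Ebp (8.80) and low in Mageh1 (4.04), and LFD 3 low in Zfp112 (4.19).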

How the results depend on the processing

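The count of genes past the threshold stayed at 0 for the pooled comparison under each of 47 alternatives that could be fitted, with a smallest adjusted p between 0.107 (additive model) and 1, and Cd93 first in 40 of them. Genes at an unadjusted p under 0.05 numbered 846 of 18820 without a filter, 234 of 8751 at a mean level of at least 6, 911 of 23623 over all probe sets, 286 without saline HFD 1 and 2, and 314 without saline HFD 2.

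For acetate against saline 1 gene, Cnih2, passed without the intensity trend and 1, again Cnih2, under quantile normalization, and the range over left-out arrays was 0 to 1 (Cnih2 without saline HFD 3, acetate HFD 1 or propionate HFD 1). For butyrate minus propionate the range was 0 to 1 (Myd88 without butyrate HFD 3). The cause was not tested. The other 9 comparisons stayed at 0.

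Signs turned for genes near 0 and for genes of the arrays that stand apart. Leaving out the 4 arrays rich in small intestinal transcripts, Apoa1 was at 0.341, Apoa4 at 0.143, Cdkn1a at 0.0133, Slc26a6 at 0.0155 and Ffar3 at -0.0430. Without the 5 arrays Apoa1 was at 0.368, Apoa4 at 0.139, Actg2 at 0.0436, Des at 0.0528, Myh11 at 0.0515 and Ffar3 at -0.0082. Ffar3 was at -0.0037 under quantile normalization, -0.0035 with median centring and -0.0053 without propionate, where Cdkn1a was at 0.0461, and Muc2 was at -0.0042 with array weights. Over left-out arrays Ffar3 ran from -0.0189 to 0.0343, Ffar2 ran from -0.0179 to 0.1100, Cdkn1a ran from -0.1312 to 0.0027, Muc2 ran from -0.0063 to 0.0237 and Scd1 ran from -0.1723 to 0.0098.

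Arrays of different groups that share a replicate number were compared. Of 105 such pairs 42 had deviations correlated above 0.1, with a mean r of 0.041, against -0.014 for other pairs. Of 31 arrays 12 correlated best with an array of their own number. Whether the numbers mark a pairing of the samples was not tested. With the replicate number as a block the count was 0 in each of the 11 comparisons, and 546 genes had an unadjusted p under 0.05 in the pooled comparison.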
